A study of Mus musculus with 57 samples.

Results

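The genes described here are 10 genes of the smooth muscle contractile apparatus, *Acta2*, *Myh11*, *Tagln*, *Actg2*, *Cnn1*, *Des*, *Lmod1*, *Smtn*, *Myocd* and *Mylk*, of the 56860 genes in the bulk RNA-seq tables. They were taken by name from the count and TPM tables, where TPM is a read count scaled for exon length and for library size, and were picked because *Actg2* and *Myh11* were low in *Hoxa5*-/- diaphragm. The genotype difference in diaphragm is therefore given only as a description, without a test. The study collected 57 libraries of polyA RNA from wild-type (wt) and *Hoxa5*-/- mouse embryos of the 129/Sv background, in 7 combinations of tissue and stage that are called contexts here. Trachea and diaphragm at E15.5, lung at either E12.5 or E15.5 and somites at E12.5 had 4 libraries of each genotype, the younger somites, of E10.5, came as 4 libraries from wt and 3 from *Hoxa5*-/- embryos, and the brown fat between the shoulder blades (iBAT), taken at E18.5, had 5 of each. Somite samples held cervicothoracic trunk tissue without spinal cord, limb buds or chest organs. All mutants were homozygous for the same germline null allele, in which a neomycin cassette lies in the homeobox of *Hoxa5*, and the libraries of a group were biological replicates. Trachea, lung and diaphragm were read as single-end reads of 100 bases at 1 centre and somites and iBAT as paired-end reads of 150 bases at another, so that tissue and centre cannot be told apart between those sets.

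Smooth muscle shortens when myosin, with the heavy chain of *Myh11*, pulls on actin filaments made of the products of *Acta2* and *Actg2*. The kinase encoded by *Mylk* switches myosin on by phosphorylating its regulatory light chain, while calponin (*Cnn1*), transgelin (*Tagln*), leiomodin (*Lmod1*), smoothelin (*Smtn*) and the intermediate filament protein desmin (*Des*) bind or anchor the filaments. Myocardin (*Myocd*) is a coactivator of serum response factor, which binds CArG boxes near many of these genes. Smooth muscle surrounds the airways, the blood vessels and the gut, whereas *Des* is also a protein of skeletal and cardiac muscle, and *Acta2* is expressed for a time in developing striated muscle.

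Because CArG boxes are the sites through which *Myocd* and serum response factor act, the 250 bases upstream of the annotated start of each of the 10 genes were searched for them on both strands, in the GRCm39 build used by the authors. A CArG box was taken as CC and GG around 6 bases that are all A or T. Such a box lay in 2 of the 10 promoters, those of *Tagln* and *Actg2*, and in 1.32% of 21795 promoters of protein-coding genes. A CArG-like box, in which 1 of the 6 bases may be C or G, also lay in that of *Myocd*, giving, with the strict boxes counted in, 3 of 10 against 8.37% of all. The start of *Acta2* differs between annotations, and its GRCm39 promoter held neither kind of box. The RefSeq promoter table (GRCm38.p6), which holds 6 of the 10 genes, gives for *Acta2* a promoter with 2 CArG-like boxes, 84 and 34 bases upstream of its start. In that table the promoters of *Des*, *Lmod1*, *Cnn1*, *Smtn* and *Mylk* held none, and 8.59% of 32851 entries held one. The 3 promoters with these boxes in capitals are those of both smooth muscle actins and of *Tagln*, shown because *Actg2* and *Tagln* hold the strict boxes and *Acta2* is the most abundant gene of the list, while that of *Myocd* is not shown, each written from 5′ to 3′ on the strand of the gene, which is the minus strand for all 3. The *Actg2* promoter lies at chr6:83513248-83513497 (GRCm39) with boxes that begin 68 and 31 bases upstream, the *Tagln* promoter at chr9:45847357-45847606 (GRCm39) with 1 box 112 bases upstream, and the *Acta2* promoter at chr19:34255374-34255623 (GRCm38.p6). A match describes the letters alone.
Actg2: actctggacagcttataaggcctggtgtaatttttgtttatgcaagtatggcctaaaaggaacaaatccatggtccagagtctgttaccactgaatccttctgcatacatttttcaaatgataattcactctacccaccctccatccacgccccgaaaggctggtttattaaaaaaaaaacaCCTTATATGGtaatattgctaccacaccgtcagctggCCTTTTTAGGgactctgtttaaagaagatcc
Tagln: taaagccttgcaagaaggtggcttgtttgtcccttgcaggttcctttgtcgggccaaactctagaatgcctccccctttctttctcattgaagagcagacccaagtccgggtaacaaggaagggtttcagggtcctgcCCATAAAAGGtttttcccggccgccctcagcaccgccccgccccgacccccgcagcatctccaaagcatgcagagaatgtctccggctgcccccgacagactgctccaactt
Acta2: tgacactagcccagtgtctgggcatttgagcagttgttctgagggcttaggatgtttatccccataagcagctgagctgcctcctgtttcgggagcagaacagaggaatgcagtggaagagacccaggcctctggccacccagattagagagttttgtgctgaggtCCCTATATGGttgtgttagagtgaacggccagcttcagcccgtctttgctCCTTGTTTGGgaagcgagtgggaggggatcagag

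Library totals lay between 18369905 and 72991481 counted reads. *Hoxa5* was lower in every mutant library than in any wt library of its context, with log2 fold changes from -1.94 to -0.92. The insertion leaves exon sequence on which reads are still counted. Each labelled tissue carried RNA of its own markers: the summed TPM of the marker list was 14740.1 to 30579 in wt diaphragm for 7 skeletal muscle genes, 1157 to 1566 in wt trachea for 4 cartilage genes, 3385 to 9569 in wt lung at E15.5 for 6 epithelial genes, 8276 to 13666 in wt iBAT for 5 brown fat genes and 311 to 389 in wt somites at E10.5 for 5 somite genes. Some libraries also held RNA of neighbouring organs, with 3366 to 6029 TPM of 5 cardiac muscle markers in wt trachea and 1662 to 9373 TPM of 6 hepatocyte markers in wt diaphragm. Libraries that stood apart in such RNA included wt diaphragm libraries 1 to 3 for foregut epithelium, the last of them also for lung epithelium. Mutant lung library 3 of E15.5 did so for hepatocyte markers (480.2 TPM against at most 10.1 in the other mutants) and library 4 for cardiac muscle. Mutant trachea library 3 and wt iBAT library 1 did so for skeletal muscle. That of the hepatocyte markers aside, these values stand beside the results they touch. Given here alone are a mutant diaphragm library with 242 TPM of the cartilage gene *Col2a1* (mutant median 7.26) and a wt trachea library with 288 TPM of *Sftpc* (wt median 11.6). In lung at E12.5, wt library 1 held 26.4 and mutant library 3 held 36.2 TPM of *Barx1*, against at most 9.82 and 10.8 in the others of their groups. Counts of *Tagln* are uncertain: 1349 of its 1988 exon bases also lie in exons of *Pcsk7* or *Gm48529* on the opposite strand, and the sources used here do not give the strand setting of the counting. Its TPM was at most 4.77 in any library. The other genes shared at most 16.3% of their exon bases with another gene, and no window of 100 bases of *Acta2* or *Actg2* transcripts was identical to one of another actin gene.

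By mean TPM, *Acta2* was the most abundant of the 10 genes in each wt context but iBAT, where *Des* was higher, although in wt diaphragm *Des* exceeded it in 2 of 4 libraries, and the levels of the genes differed far more between contexts than between replicates. In wt libraries, the mean TPM of *Acta2*, the alpha actin of smooth muscle, was 1246 ± 184 (SD, n = 4) in diaphragm, 1147 ± 257 in trachea, 975 ± 131 in lung at E15.5, 701 ± 35.4 in somites at E12.5, 397 ± 74.4 in lung at E12.5, 141 ± 13.1 in somites at E10.5 and 29.6 ± 3.77 (n = 5) in iBAT. The ranges of diaphragm, trachea and lung at E15.5 overlapped, and those of the other 4 contexts lay apart from each other. *Actg2*, the gamma actin that marks visceral smooth muscle, followed another order, with 357 ± 156 TPM in trachea, 236 ± 61.8 in lung at E15.5, 183 ± 115 in diaphragm, 151 ± 46.9 in lung at E12.5, 9.13 ± 1.17 in somites at E12.5, 4.48 ± 1.65 in somites at E10.5 and 2.3 ± 0.265 in iBAT. Its first 4 contexts overlapped in turn, and each was above every library of somites and iBAT. *Myh11* had the same sequence of the first 4 contexts, at 207 ± 69.6, 145 ± 26.1, 86.2 ± 52.3 and 59 ± 18.3 TPM, and stood at 5.96 ± 1.24 in iBAT, 3.61 ± 0.961 in somites at E12.5 and 1.31 ± 0.409 in somites at E10.5.

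The filament-binding genes were highest in trachea. There *Cnn1* reached 155 ± 41.8 TPM, apart from the next context, lung at E15.5, at 47.4 ± 11.8. *Lmod1*, a nucleator of actin filaments, had 17.8 ± 2.92 TPM in trachea, 12.6 ± 4.51 in diaphragm and 9.73 ± 1.53 in lung at E15.5, and *Tagln* 4.05 ± 0.956, 2.7 ± 1.07 and 1.94 ± 0.494. *Des*, which striated muscle also uses, and *Smtn* were instead highest in wt diaphragm. *Des* was at 1188 ± 288 TPM against 173 ± 48.4 in trachea and *Smtn* at 235 ± 34.1 against 113 ± 5.43 in lung at E15.5, with no overlap in either case. *Mylk* was highest in lung at E15.5, at 172 ± 13.9 TPM, apart from 92 ± 14.6 in trachea. *Myocd* was highest in lung at E12.5, at 21.4 ± 3.03 TPM, overlapping 19.5 ± 4.47 in trachea and 14.8 ± 4.95 in lung at E15.5, and it stood at 4.06 ± 1.76 in diaphragm, apart from these. In somites and iBAT every wt mean of *Myocd* was under 1 TPM, at 0.93 ± 0.306, 0.333 ± 0.151 and 0.134 ± 0.0323. Among the 4 wt contexts of trachea, lung and diaphragm, which were read at 1 centre, the highest mean was 39 times the lowest for *Des*, 5.42 times for *Cnn1*, 5.26 times for *Myocd*, 3.51 times for *Myh11* and 2.36 times for *Actg2*.

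**Figure D1:**
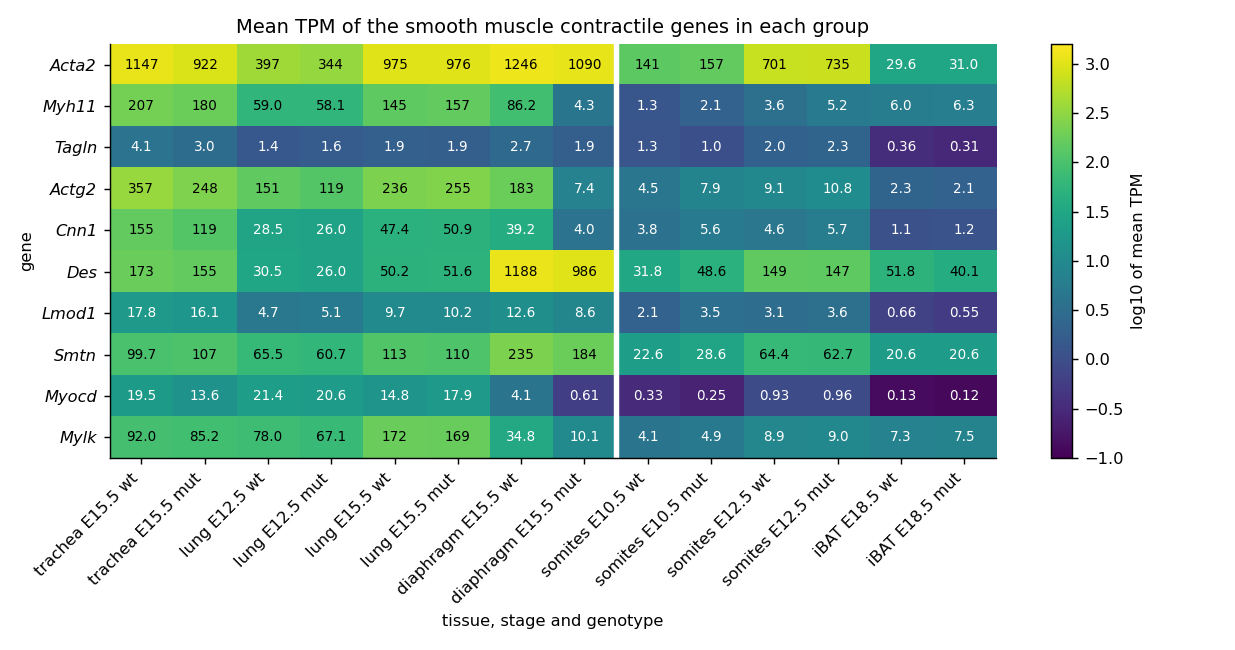
Mean TPM of each gene (rows) in each tissue, stage and genotype (columns), coloured on a log10 scale with the mean written in each cell; the white line separates the sets read at different centres. The low values of *Myh11*, *Actg2*, *Cnn1* and *Myocd* in mutant diaphragm stand beside wt means of 86.2, 183, 39.2 and 4.06 TPM.

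The makeup of the contractile set also differed between contexts, which is seen by setting each gene against *Acta2* within a library, as TPM per 100 TPM of *Acta2*. *Actg2* stood at 37.6 ± 5.72 (SD, n = 4) in wt lung at E12.5, 30.5 ± 7.86 in trachea and 23.9 ± 3.44 in lung at E15.5, but at 3.21 ± 1.29 in the younger and 1.31 ± 0.217 in the older somites. In wt diaphragm it was 14 ± 7.08, between these. *Myh11* per 100 TPM of *Acta2* was 17.9 ± 3.45 in wt trachea, 14.6 ± 2.2 and 14.8 ± 1.15 in lung, and 20.2 ± 3.62 (n = 5) in iBAT, while it was 0.942 ± 0.327 and 0.52 ± 0.159 in somites. The proportion of *Myh11* in iBAT thus lay near that of trachea, at a far lower level of both transcripts. *Actg2* of iBAT was low beside *Myh11*, at 31.9 to 54.6 per 100 TPM of *Myh11* in wt, where the wt libraries of all other contexts ran from 136 to 411. Desmin exceeded alpha actin in iBAT, with 138 to 239 TPM of *Des* per 100 of *Acta2* in wt, against 4.8 to 5.75 in wt lung at E15.5.

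**Figure D2:**
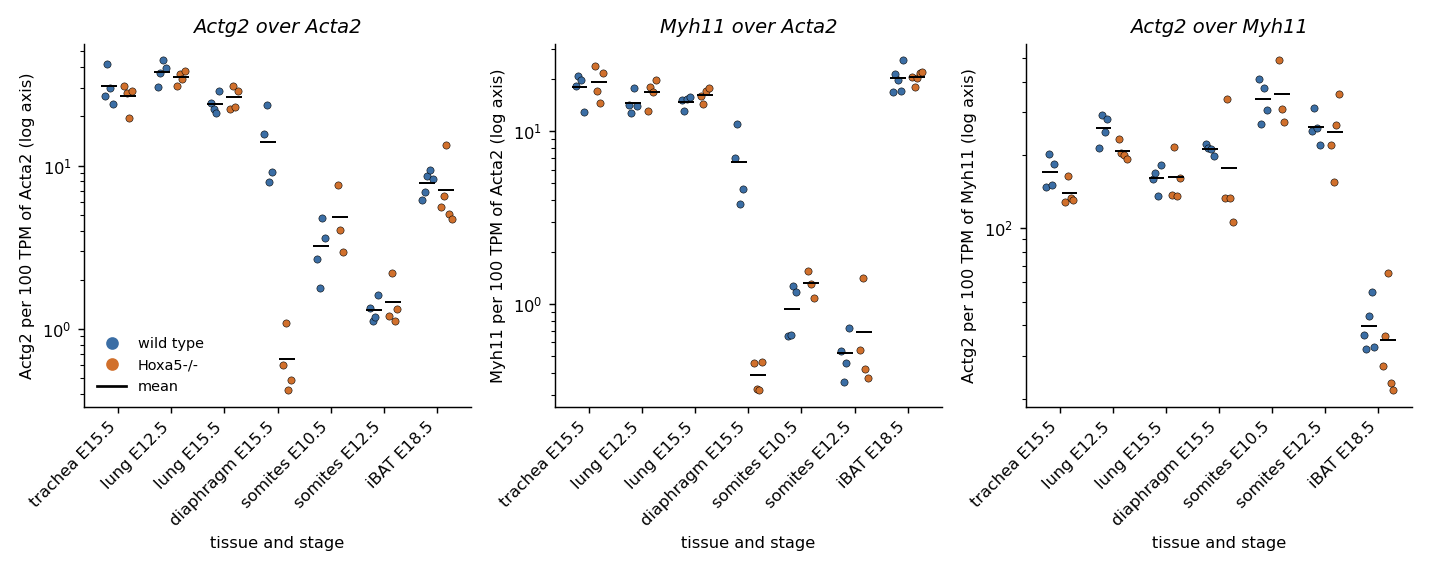
Ratios of *Actg2* to *Acta2*, *Myh11* to *Acta2* and *Actg2* to *Myh11* in every library (points, log axis, TPM of the first gene per 100 TPM of the second) by context, wt in blue and *Hoxa5*-/- in orange, with the mean as a bar. In diaphragm the mutants lie below the wt libraries for both ratios to *Acta2*, at 0.652 against 14 and 0.390 against 6.59 on average.

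Between E12.5 and E15.5, most of the contractile genes rose in wt lung, at a time when airway and vascular muscle is being laid down. Of the 10 genes, 8 were called higher and none lower, where 15.4% of 18158 tested genes were called higher and 9.15% lower. A call here means a 1.5-fold difference or more with an adjusted p under 0.05 in edgeR's quasi-likelihood test, adjusted over all genes tested by the Benjamini-Hochberg method. *Acta2* had 359, 311, 460.5 and 458 TPM in the 4 libraries at E12.5 and 1095, 893, 835 and 1078 at E15.5, without overlap. Its log2 fold change was 1.26 ± 0.13 (SE; edgeR adjusted p = 2.6e-05). *Myh11* had 50.6, 39.4, 81.9 and 64 TPM at E12.5 and 165, 117, 128 and 169.9 at E15.5, again apart, with a log2 fold change of 1.27 ± 0.20 (edgeR adjusted p = 0.00041). *Mylk*, the kinase that activates this myosin, rose from 65.5, 58.8, 92.3 and 95.5 to 168, 156, 189 and 176 TPM, with a log2 fold change of 1.11 ± 0.14 (edgeR adjusted p = 0.0001). *Lmod1*, *Smtn*, *Cnn1* and *Des* rose by 1.0, 0.75, 0.70 and 0.69 on the log2 scale. *Actg2* was called at 0.61 ± 0.22 (edgeR adjusted p = 0.042), although its libraries overlapped at 108 to 202 and 174 to 309.5 TPM and the call was lost with DESeq2 and when wt library 1 or 2 of E12.5 or 1 or 4 of E15.5 was left out. *Myocd* went the other way, from 18.1, 20.4, 25.3 and 21.6 TPM at E12.5 to 18.8, 11.3, 9.85 and 19.3 at E15.5. Its log2 fold change of -0.56 ± 0.21 had an edgeR adjusted p of 0.044 but did not reach the fold limit, except without wt library 1 of E12.5 or 1 or 4 of E15.5. *Tagln* differed by 0.45 ± 0.29 (edgeR adjusted p = 0.22) and was called without wt library 3 of E12.5. Of 30 further smooth muscle genes, 11 of the 28 tested were called higher and 1, *Cald1*, lower at -0.73, with a median of 0.40 against -0.01 over all genes. The genes called higher were *Myl6*, *Rock2*, *Jph2*, *Kcnmb1*, *Kcnma1*, *Ppp1r14a*, *Nexn*, *Csrp1*, *Pdlim3*, *Casq2* and *Synm*, from 0.66 to 3.41, the highest of them *Synm*, which encodes synemin, a partner of desmin. Markers of other cells moved with the stage, with 341 to 443 TPM of 5 endothelial markers at E12.5 and 811 to 995 at E15.5, 53.9 to 73.6 and 133 to 178 of the 3 markers of interstitial cells of Cajal, and 35.1 to 47.9 and 66.4 to 243 of 5 cardiac markers. *Ano1* of the 3 was not particular to interstitial cells of Cajal, at a mean of 37.2 TPM in wt iBAT. The 6 pericyte markers summed to 354 to 431 and 361 to 411 TPM, with overlap. The part of these cells in the rises was not tested. Each result concerns RNA of whole tissue, in which fewer cells of a type and less RNA per cell cannot be told apart.

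At E15.5, *Cnn1*, *Des*, *Lmod1* and *Tagln* were higher in wt trachea than in wt lung and *Mylk* was lower, while *Acta2*, *Myh11* and *Actg2*, which encode the filaments themselves, were not called. Of the 10 genes, 4 were called higher in trachea and 1 lower, where 20.1% of 19340 tested genes were called higher and 10.1% lower. *Acta2* was at 835 to 1385 TPM in trachea and 835 to 1095 in lung, a log2 difference of 0.20 ± 0.16 (edgeR adjusted p = 0.34). *Myh11* and *Actg2* differed by 0.48 ± 0.23 and 0.56 ± 0.29, with edgeR adjusted p of 0.12 and 0.14, and *Myh11* passed when wt trachea library 4 was left out. *Cnn1* had 162, 209, 112 and 136 TPM in trachea and 56.4, 40.3, 34.5 and 58.5 in lung, 3.19-fold higher in trachea at a log2 fold change of 1.67 ± 0.23 (edgeR adjusted p = 0.0003). *Des* had 180.2, 238, 132 and 139.9 TPM in trachea and 52.5, 45.2, 48 and 55.2 in lung, with a log2 fold change of 1.75 ± 0.18 (edgeR adjusted p = 5.6e-05). Both genes lay wholly apart between the tissues. *Lmod1* and *Tagln* were higher in trachea by 0.83 ± 0.16 and 1.01 ± 0.25. *Mylk* was lower there, at 104, 105, 82.8 and 76.5 TPM against 168, 156, 189 and 176 in lung, with a log2 fold change of -0.94 ± 0.11 (edgeR adjusted p = 0.00015). Markers of striated muscle moved with this comparison: the summed TPM of the 5 cardiac markers was 4232, 6029, 3366 and 5486 in wt trachea and 66.4, 103, 243 and 68.8 in wt lung, and of the 7 skeletal markers 684, 251, 136 and 131 and 11.2, 9.13, 22 and 15.6. Their part in the differences of *Des*, *Cnn1* and *Lmod1* was not tested. Of the 30 further smooth muscle genes, 12 were called higher in trachea, *Tpm2*, *Tpm1*, *Synpo2*, *Kcnmb1*, *Kcnma1*, *Jph2*, *Pdlim3*, *Myl9*, *Pgm5*, *Mylk4*, *Pln* and *Casq2*, from 0.82 to 5.12, and 4 lower, *Ppp1r14a*, *Synm*, *Itga8* and *Csrp1*, from -2.65 to -0.72. The highest were *Casq2* and *Pln*, calcium-handling genes that heart also expresses. The median of the 30 was 0.32, beside 0.02 over all genes.

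In wt somites, *Acta2*, *Des* and *Smtn* rose most from E10.5 to E12.5. Of the 9 genes tested, 7 were called higher and none lower, where 24.1% of 19773 tested genes were called higher and 18.4% lower, and *Myocd* was not tested because both wt means were under 1 TPM. *Acta2* had 159, 131, 131 and 140.5 TPM in the 4 younger libraries and 679, 751, 699.7 and 673 in the 4 older, 4.74-fold more, with a log2 fold change of 2.25 ± 0.10 (edgeR adjusted p = 5.1e-10). *Des* had 22.7, 32.7, 43.4 and 28.2 TPM and then 157, 183, 139 and 116, with a log2 fold change of 2.17 ± 0.16 (edgeR adjusted p = 7.8e-08), and *Smtn* rose by 1.45 ± 0.10. The 3 genes were wholly apart between the stages. *Myh11*, *Mylk* and *Actg2* rose by 1.41 ± 0.22, 1.06 ± 0.15 and 0.97 ± 0.23 on the log2 scale, from low levels of 0.877 to 1.67, 2.79 to 5.8 and 2.34 to 6.29 TPM at E10.5. *Tagln* was called at 0.61 ± 0.25 (edgeR adjusted p = 0.044), a call lost with DESeq2, with the replicate number as a block and without wt library 1, 2 or 3 of E10.5 or 1, 2 or 4 of E12.5, while *Lmod1* at 0.55 ± 0.17 had an edgeR adjusted p of 0.011 under the fold limit, which it passed without wt library 3 or 4 of E10.5 or 3 of E12.5, and *Cnn1* at 0.21 ± 0.18 did not pass. The summed TPM of the 7 skeletal muscle markers was 145, 133, 274 and 201 in the younger and 2451, 3062, 2218 and 1977 in the older libraries, and its part in these rises was not tested. Of the further smooth muscle genes, 19 of 28 tested were called higher, *Flna*, *Synm*, *Itga8*, *Ppp1r12b*, *Pdlim7*, *Cald1*, *Lpp*, *Kcnma1*, *Csrp1*, *Tpm1*, *Myl9*, *Pgm5*, *Nexn*, *Pdlim3*, *Jph2*, *Tpm2*, *Casq2*, *Mylk4* and *Synpo2*, from 0.61 to 3.60, and 1 lower, *Ppp1r14a*, at -1.98. The median of the 28 was 0.89, beside -0.04 over all genes. Of these, *Jph2*, *Casq2*, *Pdlim3*, *Nexn*, *Tpm1*, *Tpm2* and *Mylk4* are also expressed in striated muscle.

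**Figure D3:**
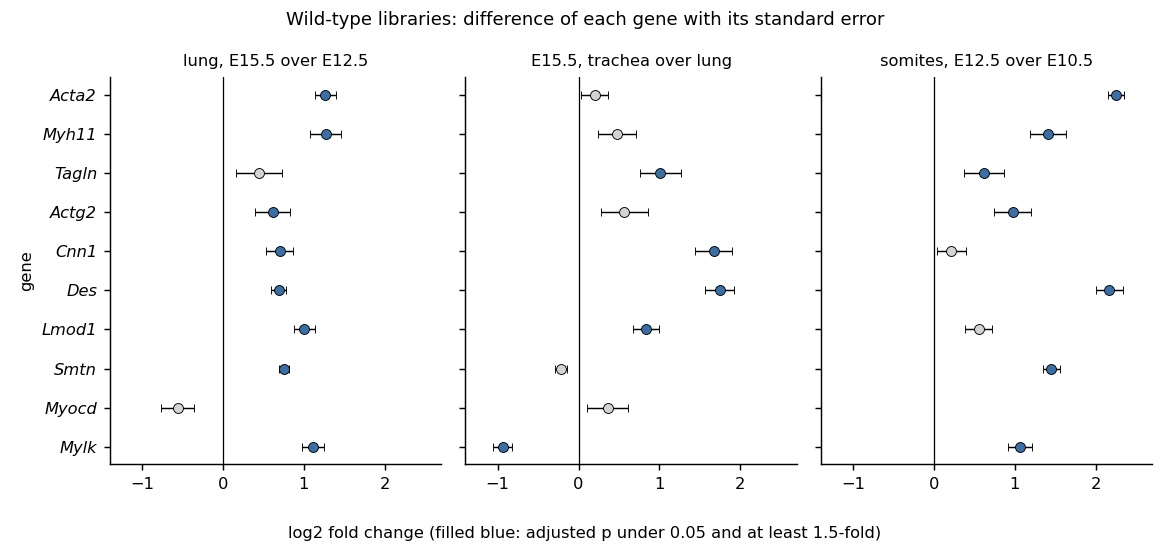
Log2 fold change (point) with its standard error (bar) of each gene between wt groups, for lung at E15.5 over E12.5, trachea over lung at E15.5 and somites at E12.5 over E10.5; blue points passed the test and the fold limit, grey points did not. *Cnn1* and *Des* stand out in trachea at 1.67 and 1.75, and *Acta2* and *Des* in somites at 2.25 and 2.17.

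In diaphragm at E15.5, the contrast on which the list was picked, 5 of the 10 genes were low in *Hoxa5*-/- libraries and 5 overlapped between genotypes. *Actg2* had 214, 332, 82.3 and 106 TPM in wt libraries 1 to 4 and 7.21, 13.6, 3.73 and 5.07 in mutant libraries 1 to 4. *Myh11* had 96.4, 156, 39.1 and 53.5 TPM in wt and 5.43, 4.02, 2.81 and 4.79 in mutants. *Cnn1* had 45.1, 67.7, 18.2 and 25.8 TPM in wt and 5.07, 3.61, 2.54 and 4.73 in mutants. For these genes every mutant library lay under every wt library, and wt library 2 was the highest and wt library 3 the lowest of the wt group. The log2 fold changes were -4.63 ± 0.56 (SE), -4.34 ± 0.46 and -3.30 ± 0.43, or 24.7-fold, 20.2-fold and 9.83-fold lower. *Myocd*, their coactivator, had 3.84, 6.44, 3.78 and 2.19 TPM in wt and 0.535, 0.61, 0.857 and 0.443 in mutants, a log2 fold change of -2.73 ± 0.33. *Mylk* had 34.4, 47.3, 35.3 and 22 TPM in wt and 10.2, 8.71, 10.1 and 11.5 in mutants, at -1.78 ± 0.20. Here too the genotypes were apart, although by a narrower gap.

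*Acta2* and *Des*, which developing striated muscle also expresses, overlapped between genotypes, as did *Smtn*, *Lmod1* and *Tagln*. *Acta2* had 1377, 1421, 1031 and 1157 TPM in wt and 1193, 1243, 884 and 1039 in mutants, with a log2 fold change of -0.21 ± 0.14. *Des* had 1522, 1080.0, 851 and 1300.4 TPM in wt and 1163, 925, 673 and 1184 in mutants, at -0.29 ± 0.24. *Smtn*, *Lmod1* and *Tagln* gave -0.37 ± 0.15, -0.55 ± 0.23 and -0.50 ± 0.26. Per 100 TPM of *Acta2*, *Actg2* was 7.98 to 23.4 in wt and 0.422 to 1.09 in mutants, and *Myh11* 3.79 to 11 and 0.318 to 0.461. Within the wt group the level of *Actg2* ran from 82.3 to 332 TPM, and per 100 TPM of *Myh11* it was 197 to 222. Mutant library 2 differed from the other mutants, with 338 TPM of *Actg2* per 100 of *Myh11* against 106 to 133. Of 18019 genes, 4.62% had every mutant library under every wt library, a share given as background only, since the list was picked on this contrast.

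**Figure D4:**
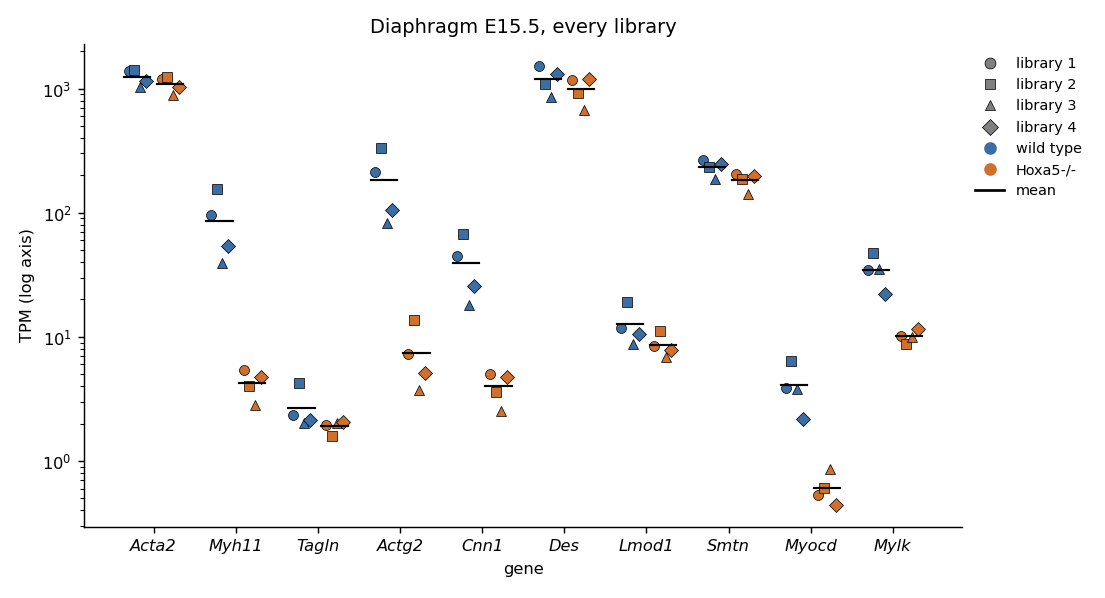
TPM of each gene (log axis) in the 4 wt (blue) and 4 *Hoxa5*-/- (orange) diaphragm libraries at E15.5, with a symbol for each library and the mean as a bar. *Myh11*, *Actg2*, *Cnn1*, *Myocd* and *Mylk* are apart between the genotypes, and *Acta2*, *Des*, *Smtn*, *Lmod1* and *Tagln* overlap.

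Markers of other tissues moved with these genes in diaphragm, and their part in the result was not tested. *Krt5*, a keratin of stratified epithelium, had 46.2, 75.6, 0.229 and 1.04 TPM in wt libraries 1 to 4 and at most 1.15 in mutants, and *Krt13* had 73.1, 99.8, 0.069 and 0.981 and at most 0.889. Of 8 foregut and oesophageal epithelium markers 7 had a higher mean in wt, all but *Trp63*, and *Krt13*, *Sox2* and *Esrp1* were under 1 TPM in every mutant. The summed TPM of the 8 was 297, 496, 119.6 and 20.5 in wt and 20.6, 12.8, 22.5 and 21.3 in mutants. Wt libraries 1, 2 and 3 lay above all mutants in this sum, and wt library 4 lay within the range of the mutants. In wt library 4 *Actg2* was at 106 and *Myh11* at 53.5 TPM, above all mutants. The 6 lung and airway epithelium markers summed to 57.5, 68.1, 500.2 and 53.3 TPM in wt and 58.3 to 75.1 in mutants, with wt library 3 the highest. Outside that library most of the sum was *Etv5*, which ran from 47.6 to 92 TPM in wt and 57.3 to 64.3 in mutants. *Foxj1* was apart between genotypes at low levels, 1.02 to 3.06 TPM in wt and 0.345 to 0.95 in mutants, and the rest of these markers overlapped. The 4 gut mesenchyme markers summed to 33.4, 56.8, 71.8 and 22.8 TPM in wt and 10.1 to 12.2 in mutants, with *Foxf2* at 5.03, 10.2, 18.9 and 2.48 TPM in wt and at most 0.482 in mutants, and *Nkx3-2* under 1 TPM in all. The gut mesenchyme sum was higher in every wt library than in any mutant. *Foxf1* and *Foxf2* of this list were not particular to gut, at means of 227 and 129 TPM in wt lung at E15.5, where *Barx1* was at 1.05. Wt library 3, the highest in this sum, was also the highest in lung and airway epithelium. The 3 markers of interstitial cells of Cajal summed to 15.3 to 31.2 TPM in wt and 11.6 to 16.8 in mutants, and overlapped. The 6 pericyte markers summed to 305 to 316 TPM in wt and 215 to 264 in mutants, apart but close, and the 7 skeletal muscle markers to 14740.1 to 30579 and 11268 to 21340.4, overlapping. Without wt libraries 1 and 2, an alternative chosen after the data had been seen, the log2 fold changes were -3.67 for *Actg2*, -3.44 for *Myh11*, -2.46 for *Cnn1*, -2.27 for *Myocd* and -1.49 for *Mylk*, as values from 2 wt and 4 mutant libraries. The wt libraries kept, 3 and 4, also held more of the gut mesenchyme markers than any mutant, at 71.8 and 22.8 TPM. The part of other tissues in these fold changes was not tested.

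Wt diaphragm was then set beside wt trachea and wt lung of the same age, as values only. In wt diaphragm libraries 1 to 4, *Actg2* at 214, 332, 82.3 and 106 TPM lay within the range of lung (174 to 309.5) in library 1, within that of trachea (248 to 578) in library 2, and under both in libraries 3 and 4. *Myh11* lay within both ranges in library 2 and under every wt trachea and lung library of E15.5 in the other 3. *Mylk* and *Myocd* were lower in every wt diaphragm library than in any of trachea or lung. In mutant diaphragm, *Actg2* at 3.73 to 13.6 TPM and *Myh11* at 2.81 to 5.43 lay under every wt and mutant library of trachea and lung. In wt somites, which were read at another centre, *Actg2* was at 2.34 to 6.29 TPM in the younger stage and 8.27 to 10.8 in the older.

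Outside diaphragm, none of the 10 genes was called between genotypes in any of the 6 contexts by edgeR, nor by DESeq2 or with the replicate number as a block. The share of all tested genes called was 0.0156% in trachea, 0.0798% in lung at E12.5, 0.124% in lung at E15.5, 0.0215% in somites at E10.5, 0.00529% in somites at E12.5 and 0.00657% in iBAT, so that few calls of any gene were made. At an unadjusted p under 0.05 there was 1 of 10 genes in trachea, beside 6.7% of all genes tested, 0 of 10 at either age in lung, beside 8.01% and 6.32%, 5 of 9 in somites at E10.5, beside 12.7%, 0 of 9 in somites at E12.5, beside 3.24%, and 0 of 7 in iBAT, beside 2.47%. *Myocd* was not tested in somites or iBAT, nor *Tagln* and *Lmod1* in iBAT, where their means were under 1 TPM. In trachea, 9 of the 10 log2 fold changes were below 0, from -0.54 for *Actg2* to 0.10 for *Smtn*. *Actg2* had 355, 578, 248 and 248 TPM in wt trachea and 326, 277, 159 and 232 in mutants, and *Myocd* 20.6, 22.4, 12.9 and 22.2 and 16.9, 15.8, 11.3 and 10.51. Both overlapped between genotypes, with log2 fold changes of -0.54 ± 0.31 and -0.53 ± 0.21 and edgeR adjusted p of 0.78 and 0.74. Mutant trachea library 3, with much skeletal muscle RNA, also held the lowest *Actg2*, *Myh11* and *Cnn1* of the mutants, and without it the values were -0.37 for *Actg2*, -0.054 for *Myh11* and -0.44 for *Myocd*. The 5 cardiac muscle markers summed to 4232, 6029, 3366 and 5486 TPM in wt and 2531, 3273, 2914 and 1647 in mutant trachea, every mutant under every wt library, and the 4 gut mesenchyme markers to 126 to 157 and 94.9 to 126, and their part in these values was not tested. In lung at E12.5 the 10 values ran from -0.33 to 0.21 and in lung at E15.5 from 0.02 to 0.38, where all 10 were above 0. All 10 genes overlapped between genotypes in trachea, both stages of lung, somites at E12.5 and iBAT, where the ranges of 3.74%, 4.09%, 2.96%, 2.51% and 0.316% of all tested genes lay apart in either direction. The SEs of these lung values lay between 0.06 and 0.29. Of the mutant lung libraries of E15.5, library 4 stood apart: the chi-square of its counts against each other mutant, averaged over genes, was 289.6 to 410.5, where those among the other 3 were 18.2 to 50.3. It held 506 TPM of cardiac markers against 39.4 to 218 in the other mutants, 256 of pericyte markers against 382 to 421 and 441 of endothelial markers against 678 to 760.0. Endothelial markers were lower in every mutant than in any wt library of this age, which had 811 to 995 TPM, and their part in the values was not tested. Without library 4 the 10 log2 fold changes ran from -0.0088 for *Tagln* to 0.30 for *Myocd*, 9 of them above 0. At E12.5, mutant lung library 1 was the one apart, at 70.6 to 125 against 11 to 18.1 among the others, and without it the values ran from -0.35 for *Actg2* to 0.20 for *Tagln*.

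Somites at E10.5 were the only other context where genes of the list lay apart between genotypes, with 3 of 10 genes, *Des*, *Lmod1* and *Cnn1*, higher in all 3 mutants than in all 4 wt libraries, where 3.65% of 18573 tested genes were. *Des* had 22.7, 32.7, 43.4 and 28.2 TPM in wt and 46.4, 49.9 and 49.4 in mutants, with a log2 fold change of 0.57 ± 0.16 (edgeR adjusted p = 0.39). *Lmod1* had 1.66, 1.81, 2.38 and 2.39 TPM in wt and 3.77, 3.16 and 3.42 in mutants, at 0.70 ± 0.18 (edgeR adjusted p = 0.39). *Cnn1* had 4.73, 3.44, 3.33 and 3.62 TPM in wt and 5.84, 6.09 and 4.89 in mutants, at 0.51 ± 0.19 (edgeR adjusted p = 0.39). None of the 3 was called. Without wt library 3, *Des* and *Lmod1* were, in a fit that called 386 of all genes (2.07%) against 4 with all libraries. The summed skeletal muscle markers were 145, 133, 274 and 201 TPM in these wt and 337, 293 and 246 in the mutant libraries, and the pericyte markers 117, 128, 178 and 136 and 206, 185 and 155, and their part in the difference was not tested. In somites at E12.5, log2 fold changes ran from -0.04 to 0.53, and mutant library 2 held the highest *Myh11*, *Actg2* and *Cnn1* of the group, at 11.1, 17.1 and 9.99 TPM against at most 4.03, 9.42 and 4.92 in the other mutants. In iBAT the 7 tested genes ran from -0.32 for *Des* to 0.14 for *Cnn1*, all with overlap.

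Whether the genotype effect differed between contexts was tested as an interaction for lung at E15.5 against E12.5, trachea against lung at E15.5 and somites at E12.5 against E10.5, with diaphragm left out because the list was picked on it. None of the genes passed in any of the 3 by edgeR or by DESeq2, with 1, 1 and 2 genes at an unadjusted p under 0.05, beside 5.25%, 5.04% and 14.3% of all genes. Of all genes, 0.0267%, 0.00502% and 0.0147% passed. Without wt library 3 of somites at E10.5, *Des* and *Smtn* passed in the somite comparison, in a fit where 2580 of all genes did (12.6%) against 3 with all libraries. The trachea minus lung difference of *Myocd*, -0.91 ± 0.36 on the log2 scale, was the widest (edgeR adjusted p = 0.91).

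**Figure D5:**
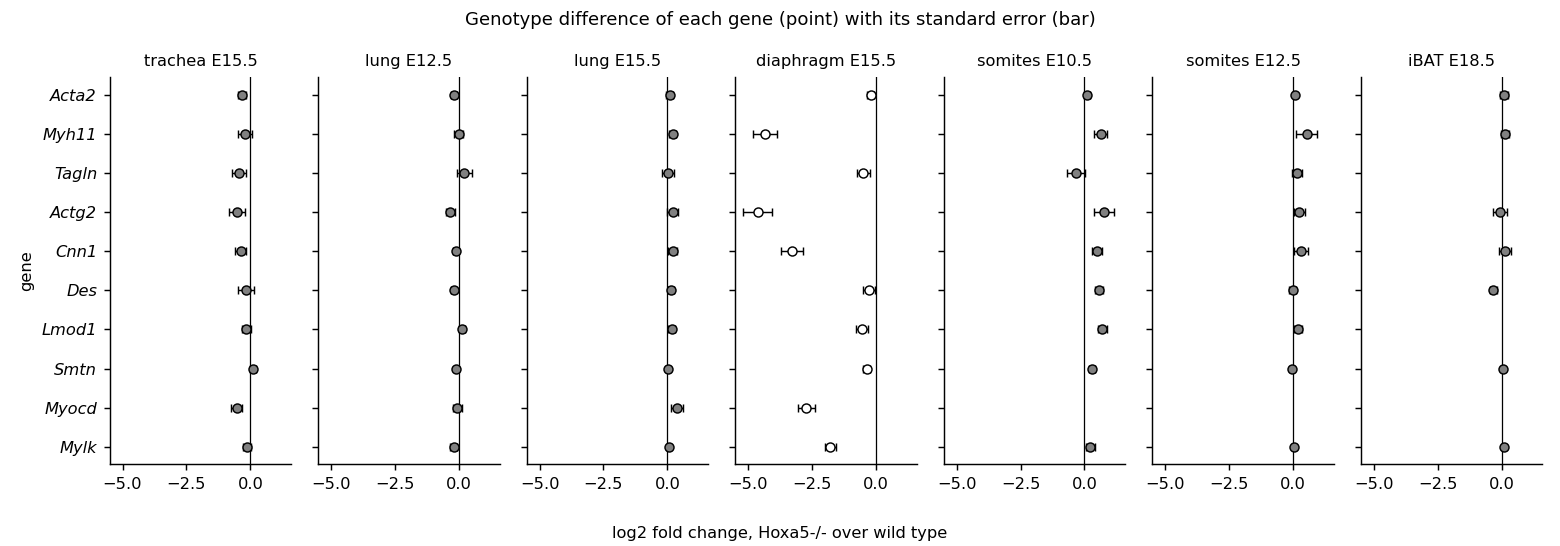
Log2 fold change of *Hoxa5*-/- over wt (point) with its standard error (bar) of each gene in the 7 contexts; grey points did not meet the criteria of adjusted p and fold change, open points in diaphragm were not tested, and genes without a point were too low to be fitted. Only diaphragm, on which the genes were picked, has points beyond -1, from -1.78 for *Mylk* to -4.63 for *Actg2*.

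Mutant trachea library 3 and wt iBAT library 1, which had the most skeletal muscle RNA of their groups, also had the most *Des*. In trachea, mutant library 3 held 255 TPM of *Des* and 133 of *Smtn*, against 97.5 to 141 and 93.3 to 103 in the other mutants. Its 7 skeletal muscle markers summed to 3264 TPM, where the other mutants had 52.3 to 106. In iBAT, wt library 1 held 80.7 TPM of *Des* against 43.4 to 45.8 in the other wt libraries, and 1457 TPM of the skeletal markers against 343 to 574. *Myh11* of that library, at 5.66 TPM, lay within the 4.76 to 7.58 of its group.

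Outside diaphragm, no gene of the wider smooth muscle set was called between genotypes. Of 30 further contractile and cytoskeletal genes, 0 of the 25 to 30 tested were called in each of the 6 contexts. Of all tested genes, 0.00529% to 0.124% were called in these contexts, so that 0 calls in a short list say little about its genes. The same holds for the regulators, actins and myosins given below. In diaphragm, given as values only, *Synm* was at a mean of 5.39 ± 1.32 TPM (SD, n = 4) in wt and 2.1 ± 0.277 in mutants. The median log2 fold change of the 28 genes in diaphragm was -0.20, beside 0.00 over all genes tested and -1.17 for the 10. The most abundant of these genes overlapped between genotypes. In trachea they were *Myl9*, a light chain of myosin, at 1811 ± 449.7 TPM in wt and 1325 ± 224 in mutants, and *Flna*, an actin crosslinker, at 581 ± 79.6 and 568 ± 76.4. In lung at E15.5 they were *Csrp1* at 899.8 ± 47.8 and 795 ± 214 and *Flna* at 759 ± 50 and 761 ± 158. In lung at E12.5 *Flna* and *Myl9* led, in somites at E10.5 *Flna* and *Myl6*, in somites at E12.5 *Flna* and *Tpm2* and in iBAT *Myl6* and *Rhoa*. Among 14 regulators, including *Srf*, *Mrtfa*, *Mrtfb*, *Foxf1* and *Gata6*, none was called outside diaphragm. In diaphragm *Foxf1* had 23.7 ± 14.3 TPM in wt and 4.99 ± 1.45 in mutants, and *Barx1* 13.3 ± 3.03 and 5.55 ± 0.864. *Srf*, the partner of *Myocd*, had 178 ± 26.6 TPM in wt and 149 ± 25.2 in mutant diaphragm. The 4 other actin genes and the 3 other myosin heavy chain genes were called in none of the 6 contexts outside diaphragm. In diaphragm *Myh14* was lower in every mutant than in any wt library, at 0.685 to 1.12 against 1.66 to 9.23 TPM. The rest of these actin and myosin genes overlapped there, with *Actb* at 1381 ± 162 TPM in wt and 1372 ± 116 in mutants.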

How the data were processed

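All 57 RNA-seq libraries were assigned to tissue, stage, genotype and replicate from the deposited labels. According to the submitters' notes and methods, the authors used Trim Galore 0.6.5 for trimming, STAR 2.7.9a for mapping to GRCm39 and featureCounts 2.0.3 for counting. The deposited counts are whole numbers without normalization, and the authors derived the deposited TPM values from counts and exon lengths.

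The counts of all genes that reached a mean of 1 TPM in at least 1 of the groups compared were fitted with edgeR 4.0.16 under R 4.3.3 (quasi-likelihood test, TMM scaling), and p-values were adjusted across them by the Benjamini-Hochberg method. A call needed an adjusted p under 0.05 and, except for interactions, a 1.5-fold difference. Alternatives were DESeq2 1.42.0, its size factors in edgeR, at least 10 counts as the filter, no fold limit, blocks by replicate number (in iBAT by the number that leads a sample's name), 1 fit per table, CPM for levels and leaving out each library. Leaving out wt diaphragm libraries 1 and 2 together was chosen after seeing the data. The fits were tested on simulated data, in which 100 genes were changed 2-fold and 100 genes 4-fold. Of the 2-fold changes 40 to 85 were called, depending on the comparison, and of the 4-fold changes 73 to 90. The genotype comparison in trachea recovered 49 of the 2-fold changes, so that a gene not called may still differ. Between 4 and 12 unchanged genes were called in error.

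Same-numbered libraries of wt trachea and lung at E15.5 deviated together, with r of 0.10 to 0.43 over 4 pairs, each above 0.1, and the block changed no call there. In every other comparison at least 1 pair was below 0.1.

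The genes and lists were chosen with earlier results of these data known. The rule for naming took all 10 genes, *Hoxa5*, the called genes or else the 2 most abundant of the further smooth muscle genes, and the 5 genes most like the list, and any other gene was chosen after its values were seen. Promoters were read from the GRCm39 genome at the starts of the deposited annotation, and from the RefSeq table of GRCm38.p6. One further marker list is not reported here.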

Additional observations from a re-analysis of the deposited data

Results flagged for a closer look

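In 6 of 130 sets of 4 or 5 libraries, each set being 1 gene in 1 group, 1 library lay farther from the rest than Dixon's criterion allows, where chance gives about 1 in 20 sets. The 6 values came from 4 libraries.

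In iBAT, mutant library 1 had 46.2 TPM of *Acta2*, the next library 30.2, and 9.44 TPM of *Myh11*, the next 5.98. Wt library 1 of iBAT had 80.7 TPM of *Des* against 45.8, together with the skeletal muscle markers given above.

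In somites at E12.5, mutant library 2 had 11.1 TPM of *Myh11* against 4.03 and 17.1 TPM of *Actg2* against 9.42, while its pericyte markers summed to 243 TPM, within the 232 to 272 of the group.

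In diaphragm, wt library 2 had 4.29 TPM of *Tagln* against 2.33, and it was also the wt library with the most *Actg2*, *Myh11*, *Cnn1* and foregut epithelial RNA. No gene of the list passed a test of whether its genotype effect differed between contexts.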

How the results depend on the processing

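Outside diaphragm, of 482 repeats of a gene's fold change under another tool, scaling, filter, block or fit, 475 kept direction and call, and 1 changed sign, *Myh11* in lung at E12.5 with the replicate number as a block, at 0.019 against -0.012. Of 677 with 1 library left out, 626 kept both. Signs changed there only for genes that were not called, over -0.50 to 0.048 for *Des* and -0.021 to 0.16 for *Smtn* in trachea, -0.15 to 0.18 for *Myh11* and -0.16 to 0.10 for *Myocd* in lung at E12.5, -0.031 to 0.10 for *Smtn* and -0.13 to 0.20 for *Tagln* in lung at E15.5, -0.050 to 0.37 for *Actg2*, -0.087 to 0.47 for *Cnn1*, -0.12 to 0.11 for *Des*, -0.15 to 0.75 for *Myh11*, -0.017 to 0.078 for *Mylk* and -0.079 to 0.030 for *Smtn* in somites at E12.5, and -0.062 to 0.17 for *Acta2*, -0.36 to 0.10 for *Actg2* and -0.036 to 0.21 for *Myh11* in iBAT. In diaphragm calls were not counted, although planned, because the genes were picked there. With 1 library left out, the log2 fold change there ran over -5.08 to -4.21 for *Actg2*, -4.58 to -3.92 for *Myh11* and -1.94 to -1.61 for *Mylk*. With 1 library left out, the number of the 10 genes called for genotype in somites at E10.5 ran from 0 to 2 and for the somite interaction from 0 to 2, the 2 in both arising without wt library 3 of E10.5. In wt lung between stages it ran from 7 to 9, between trachea and lung from 5 to 6 and in wt somites from 6 to 8. The replicate block changed 1 other call, that of *Tagln* between somite stages, whether or not numbers mark paired embryos, which the labels do not say. For all genes between genotypes, calls in the order trachea, lung at E12.5, lung at E15.5, somites at E10.5, somites at E12.5 and iBAT were 3, 14, 22, 4, 1 and 1, against 52, 81, 83, 18, 2 and 4 with DESeq2, 1, 4, 104, 0, 2 and 2 with the block and 40, 18, 38, 28, 2 and 3 with 1 fit for a table. With 1 library left out they ran from 0 to 1 in trachea, 5 to 14 and 5 to 37 in lung and 1 to 386 in somites at E10.5. The interactions of lung stage, trachea with lung, and somite stage had 5, 1 and 3 calls, 18, 59 and 17 with DESeq2 and 0, 26 and 1 with the block, and the last ran up to 2580 with 1 library left out. Without a fold limit, calls between wt groups rose from 4466, 5838 and 8416 to 9107, 9584 and 12518. By CPM in place of TPM, the order of wt contexts was kept by 10 genes in trachea, lung and diaphragm and by 7 in somites and iBAT, without *Actg2*, *Smtn* and *Mylk*. With log2(TPM + 0.1), 3 of the 5 genes most like the list in trachea, lung and diaphragm remained. The cause of these changes was not tested. Levels under 1 TPM rest on few reads, as of *Myocd* in somites and iBAT, where genotypes were not compared. *Myocd* was also under 1 TPM in every mutant diaphragm library, at 34 to 53 counts, so that its fold change and ratios there rest on few reads too.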

Other observations

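Across the 32 libraries of trachea, lung and diaphragm, the 10 genes did not vary as 1 group. Over their 45 pairs, Pearson's r of log2(TPM + 1) ran from -0.82, for *Des* with *Myocd*, to 0.97, for *Myh11* with *Actg2*, with a median of 0.38. These libraries share tissues, depth and a centre, and the values are descriptive. In the 25 libraries of somites and iBAT the median was 0.72, from -0.44 to 0.95, the highest for *Acta2* with *Tagln*.

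The genes whose level followed the mean z-score of the list most closely were *Pcp4l1*, *Enpp2*, *Adcy5*, *Krt15* and *Grk3* in trachea, lung and diaphragm, with r from 0.84 to 0.89 over 32 libraries, and *Oaf*, *Shc1*, *Prr5*, *Ppfibp1* and *Tbx2* in somites and iBAT, each with r of 0.98 over 25 libraries. The latter contexts fall into tissues far apart, so that any gene that differs between them can reach a high r.

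*Myh11* per 100 TPM of *Myocd* was 273 ± 56.3 (SD, n = 4) in wt lung at E12.5, 1024 ± 200.2 in wt lung at E15.5, 1084 ± 321 in wt trachea and 2101 ± 712 in wt diaphragm. In mutant diaphragm, where *Myocd* was under 1 TPM in every library, this ratio was 771 ± 348. The contexts therefore differed in how much *Myh11* RNA stood beside a given level of *Myocd* RNA.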
